A study of Rattus norvegicus with 6 samples.

Results

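The genes described here encode aggrecan, the link proteins and the proteins that make, cut or bind hyaluronan. They are a list of gene symbols: the hyalectans Acan and Vcan, the link proteins Hapln1 and Hapln3, the hyaluronan synthases Has1, Has2 and Has3, the hyaluronidases Hyal1 and Hyal2, and the receptor Cd44. All 10 were found among the 18923 genes measured, each under 1 identifier, and all 10 were among the 13438 genes that passed the filter on low counts. The cells were wild-type primary chondrocytes taken from the cartilage of newborn female Sprague-Dawley rats, 24 h old, and used at passage 1 or 2. The CON group received high-glucose DMEM with serum and antibiotics for 24 h. The RA group received that medium with 1 µM retinoic acid (RA), the active form of vitamin A and a ligand of nuclear receptors, for the same time. Each group had 3 samples, which the study describes as independent, and the sources used here do not say which animals gave the cells of each sample.

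Hyaluronan is a very long, unsulfated sugar chain that the synthases of the Has family extrude through the plasma membrane. In cartilage, many aggrecan molecules bind along each hyaluronan chain through their G1 domain, and a link protein locks each of them in place. The sulfated chains of aggrecan hold water, which lets the tissue resist compression. Versican, the product of Vcan, is a related proteoglycan of looser and younger matrices, and Cd44 holds hyaluronan at the cell surface and takes it up for degradation.

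Poly(A) RNA was sequenced, and each value rests on the number of reads that the authors counted per gene. Total counts ran from 30170909 to 38007486 in CON and from 29370025 to 30952882 in RA. Levels are given as FPKM, the count scaled by gene length and by the total count of the library, and changes as the log2 fold change of RA over CON with its standard error (SE). The test was edgeR's quasi-likelihood test over all genes tested with Benjamini-Hochberg adjustment. A gene counted as a DEG where its adjusted p lay under 0.05 and its log2 fold change was above 0.58 or below -0.58. Sample CON 1 lay farther from CON 2 and CON 3 (root mean square difference of log2 CPM 0.459 and 0.49) than these lay from each other (0.336), so results are also given without it. Of the 6 genes of a list of retinoid response, 5 were DEGs higher in RA, where 2.67% of all genes tested were. Among them was Cyp26a1, which encodes a retinoic acid hydroxylase, at a log2 fold change of 3.35 (SE 0.276, adjusted p = 2.13e-04). Chondrocyte markers were present in all samples, with a summed level of 7040 to 8900 FPKM in CON and 4680 to 4980 FPKM in RA. Most of that sum was Col2a1, at a mean of 5420 FPKM in CON and 3185 FPKM in RA. Of the 8 markers, 7 were DEGs lower in RA, where 2.29% of all genes tested were. The other, Sox9, was lower in every RA sample (-0.49, adjusted p = 0.00608), short of the fold-change threshold. Summed fibroblast markers were at 3710 to 4910 and 4810 to 5060 FPKM with 0 of 5 called, macrophage markers at 13.2 to 14.6 and 16.1 to 17.3 FPKM with 0 of 3 called and with Ptprc and Adgre1 below 0.1 FPKM, and osteoblast markers at 7.52 to 8.97 and 6.56 to 7.0 FPKM with 0 of 2 called. Skeletal muscle markers were at 4.69 to 6.0 and 6.96 to 7.74 FPKM with Myod1 called higher, and the endothelial markers Cdh5 and Kdr together at no more than 0.0266 FPKM. The part of these differences in the results below was not tested, and in bulk samples fewer cells of a type and less RNA per cell cannot be told apart.

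Transcripts of aggrecan and of its link protein fell, while that of the receptor rose. Acan and Hapln1 were the 2 DEGs lower in RA, at 0.351 and 0.406 of their CON level, and Cd44 was the 1 DEG higher, at 1.53 times its CON level. Among all genes tested, 2.29% were DEGs lower in RA and 2.67% were DEGs higher. By adjusted p alone, without the fold-change threshold, 4 members were lower and 1 was higher, where the shares of all genes tested were 4.5% and 5.31%. The FPKM of the groups did not overlap for 5 members lower in RA and for 3 members higher, where 13.3% and 18.9% of all genes tested had the same pattern. The median log2 fold change was -0.133 over the 10 members and -0.00571 over all genes tested.

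**Figure D1:**
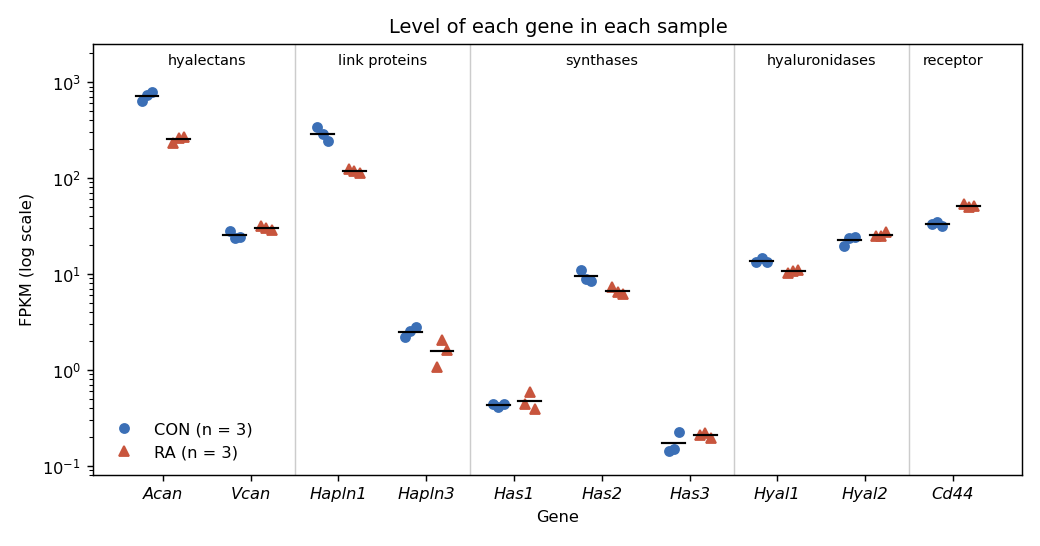
FPKM of each of the 10 genes on a log scale, with 1 point per sample, circles for the 3 CON samples, triangles for the 3 RA samples and a bar at each group mean. Acan and Hapln1 lie above 100 FPKM in all 6 samples and lower in RA, whereas Has1 and Has3 lie below 1 FPKM in all of them.

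The promoters of the 3 DEGs are shown because these are the genes that changed and because retinoic acid acts on DNA-bound nuclear receptors. Each sequence is the 250 bases before the annotated start, from RefSeq on the rat assembly GRCr8, written 5′ to 3′ along the gene. Acan lies at chr1:142390701-142390950 on the plus strand, Hapln1 at chr2:22366717-22366966 on the plus strand and Cd44 at chr3:109699425-109699674 on the minus strand. Capitals mark the motifs searched, on both strands: AGGTCA and AGTTCA, half-sites of nuclear receptors, ACAAT, the core of SOX sites, and GGGCGG, a box of SP and KLF factors.
Acan: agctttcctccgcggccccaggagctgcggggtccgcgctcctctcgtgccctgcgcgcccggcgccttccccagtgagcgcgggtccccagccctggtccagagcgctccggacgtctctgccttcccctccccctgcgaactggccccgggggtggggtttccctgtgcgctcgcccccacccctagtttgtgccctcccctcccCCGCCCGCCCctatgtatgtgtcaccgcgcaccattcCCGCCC
Hapln1: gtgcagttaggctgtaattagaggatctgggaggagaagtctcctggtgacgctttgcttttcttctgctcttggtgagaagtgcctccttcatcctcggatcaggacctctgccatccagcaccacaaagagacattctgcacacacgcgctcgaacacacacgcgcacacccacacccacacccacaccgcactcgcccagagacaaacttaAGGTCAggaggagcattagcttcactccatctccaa
Cd44: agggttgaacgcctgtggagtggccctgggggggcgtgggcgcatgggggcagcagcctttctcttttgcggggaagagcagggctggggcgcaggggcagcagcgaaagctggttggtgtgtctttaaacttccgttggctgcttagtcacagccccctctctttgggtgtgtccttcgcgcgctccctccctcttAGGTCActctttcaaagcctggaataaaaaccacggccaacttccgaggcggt

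Hapln1 held AGGTCA on its own strand, beginning 36 bases before the start, and Cd44 held it likewise 53 bases before the start. These genes moved in opposite directions. Acan held neither of the half-sites and no SOX core, and it held GGGCGG 3 times, each on the opposite strand, as CCGCCC in the sequence shown. They begin 43, 39 and 6 bases before the start, and the first 2 overlap. G and C made up 73.6% of the Acan promoter, against 54.0% for Hapln1 and 60.8% for Cd44. The share over all promoters was not computed. A promoter entry was matched by symbol for 7 of the 10 members, with 2 starts for Vcan. AGGTCA was found in 3 of the 7, namely Hapln1, Cd44 and Has1, and in 14.1% of the 33469 promoters of the table. GGGCGG was found in 4 of the 7, Acan, Vcan, Hyal1 and Hyal2, and in 30.5% of all. AGTTCA was found in 0 of the 7 and in 12.2% of all, and the SOX core in 0 of the 7 and in 30.0% of all. A match describes these letters in this window only.

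Acan (ENSRNOG00000028992), the gene of aggrecan, was at 642, 728 and 783 FPKM in CON 1, 2 and 3 and at 233, 262 and 269 FPKM in RA 1, 2 and 3. Every RA sample was far below every CON sample. Mean levels were 718 ± 71.0 FPKM in CON and 254 ± 19.1 FPKM in RA (mean ± SD, n = 3 per group, as for all levels below), and Acan fell at a log2 fold change of -1.51 (SE 0.0895, 95% interval -1.71 to -1.3, adjusted p = 4.78e-05). Aggrecan reads made up 0.446 to 0.543% of all counts in CON and 0.161 to 0.186% in RA. By mean FPKM the gene ranked 133 of all 18923, and by log2 fold change it ranked 88 from the lowest of the genes tested. Without CON 1 the log2 fold change was -1.59. Levels of the chondrocyte markers fell in the same samples, as given above.

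Vcan (ENSRNOG00000029212), the gene of versican, was at 27.8, 23.6 and 24.0 FPKM in the CON samples and at 31.5, 30.0 and 28.7 FPKM in the RA samples. The RA samples all lay above the CON samples, by a small margin. The means were 25.1 ± 2.34 and 30.1 ± 1.39 FPKM, a log2 fold change of 0.25 (SE 0.0751, 95% interval 0.0749 to 0.419) with an adjusted p of 0.0828, so Vcan was not a DEG. Without CON 1, the highest CON sample, it was 0.32 with an adjusted p of 9.22e-04, still short of the fold-change threshold, and in the other 5 fits that leave out 1 sample the adjusted p missed the threshold, at up to 0.249. Counts per gene do not separate the splice forms of Vcan.

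Acan was at a higher FPKM than Vcan in every sample, and the ratio between them was lower in each RA sample. The ratio of Acan to Vcan FPKM was 23.1, 30.9 and 32.7 in CON and 7.39, 8.73 and 9.35 in RA, with no overlap, a difference of -1.76 on the log2 scale. A two-sided exact permutation test over the samples gave p = 0.1, the smallest that 3 against 3 samples allow. Over the 4 hyalectan genes, the share of Vcan in the summed FPKM was 3.42 ± 0.637% in CON and 10.6 ± 1.17% in RA. The summed FPKM went from 743 ± 68.9 to 284 ± 17.7, and Bcan and Ncan, the hyalectans of brain, each made up less than 0.1% of it.

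Hapln1 (ENSRNOG00000032002) encodes the link protein of cartilage, which binds both hyaluronan and aggrecan. It was at 343, 288 and 241 FPKM in CON 1, 2 and 3 and at 124, 119 and 114 FPKM in RA 1, 2 and 3. The CON samples were spread more widely than the RA samples, and the lowest of them was still well above the highest RA sample. The mean fell from 291 ± 51.2 to 119 ± 5.47 FPKM, a log2 fold change of -1.30 (SE 0.112, 95% interval -1.56 to -1.04, adjusted p = 2.37e-04). Without CON 1, the highest sample, it was -1.17. The gene ranked 128 from the lowest by log2 fold change.

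Hapln3 (ENSRNOG00000022321), a link protein of wider tissue distribution, was at 2.19, 2.51 and 2.79 FPKM in CON and at 1.07, 2.06 and 1.59 FPKM in RA. The RA samples lay below the CON samples, RA 2 closely so. The log2 fold change was -0.68 (SE 0.253, 95% interval -1.26 to -0.0999), larger than the threshold, but with an adjusted p of 0.148 Hapln3 was not a DEG. Its counts were low, 42 to 140 per sample. Without CON 1 the log2 fold change was -0.77 (adjusted p = 0.0635).

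Hapln1 made up 98.4 ± 0.436% of the summed FPKM of the 4 link protein genes in CON and 97.6 ± 0.462% in RA. The sum was 295 ± 50.7 FPKM in CON and 122 ± 5.22 FPKM in RA. The ratio of Hapln1 to Acan FPKM was 0.534, 0.396 and 0.307 in CON and 0.535, 0.454 and 0.423 in RA. The groups overlapped. The difference on the log2 scale was 0.22 (two-sided exact permutation test, p = 0.4). It ran from 0.026 without CON 3 to 0.42 without CON 1, and was 0.12 without RA 1, so its size depended on which sample was left out.

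**Figure D2:**
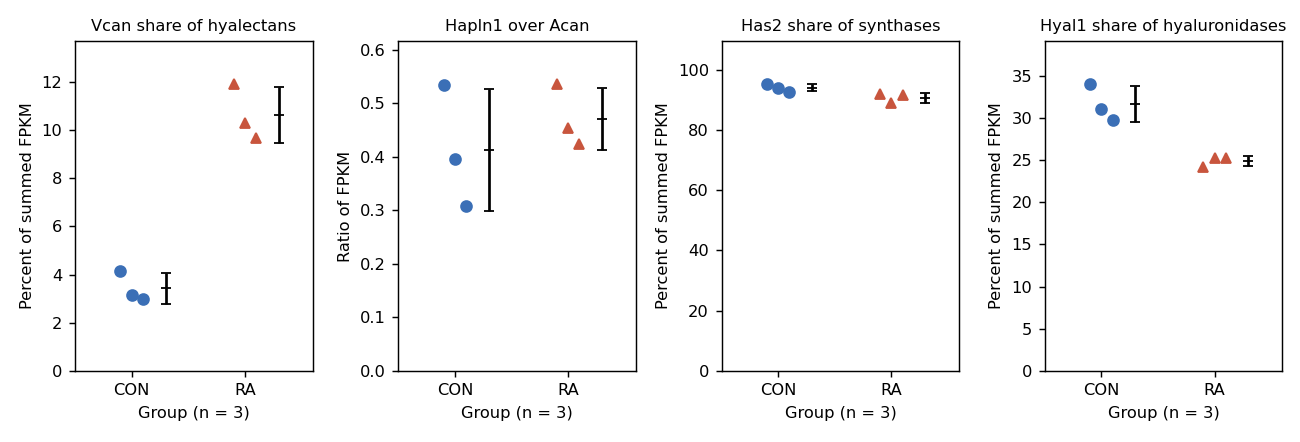
Make-up of the gene families in each sample, with circles for CON, triangles for RA and bars for mean ± SD (n = 3). From left to right the axes show the Vcan share of the hyalectan FPKM, the ratio of Hapln1 to Acan FPKM, the Has2 share of the synthase FPKM and the Hyal1 share of the hyaluronidase FPKM. The Vcan share lies between 2.97 and 4.15% in CON and between 9.66 and 11.9% in RA, while the ratio of Hapln1 to Acan overlaps between the groups.

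Of the synthases, Has2 was by far the most abundant. Has2 (ENSRNOG00000004854), the main synthase of chondrocytes, was at 11.1, 8.81 and 8.41 FPKM in CON 1, 2 and 3 and at 7.22, 6.40 and 6.16 FPKM in RA 1, 2 and 3. All RA samples were below all CON samples. The means were 9.43 ± 1.44 and 6.60 ± 0.556 FPKM, a log2 fold change of -0.53 (SE 0.113, 95% interval -0.787 to -0.269). The adjusted p of 0.0215 passed the threshold and the fold change did not, so Has2 was not a DEG. Without CON 1 the log2 fold change was -0.40 (adjusted p = 0.00224), and without CON 3 it was -0.60 (adjusted p = 0.0186), which made Has2 a DEG. In the other 4 fits that leave out 1 sample the adjusted p missed the threshold, at 0.0502 to 0.107. A long non-coding gene, LOC108351495, overlaps Has2 in the RefSeq annotation, and reads of these genes may not be told apart.

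The other synthases were at low levels. Has1 (ENSRNOG00000010994) was at 0.435, 0.411 and 0.439 FPKM in CON and at 0.434, 0.585 and 0.385 FPKM in RA, from 25 to 36 counts per sample. Has3 (ENSRNOG00000059362) was at 0.140, 0.148 and 0.223 FPKM in CON and at 0.208, 0.220 and 0.195 FPKM in RA, from 30 to 59 counts per sample. The groups overlapped for both. Their log2 fold changes were 0.11 (95% interval -0.491 to 0.713, adjusted p = 0.833) and 0.26 (95% interval -0.331 to 0.853, adjusted p = 0.585). At these counts the intervals were wide, and no change was detectable for either gene. With 1 sample left out, the value of Has3 ran from 0.13 without CON 1 to 0.52 without CON 3, and that of Has1 from -0.083 without RA 2 to 0.23. The 3 synthases summed to 11.7, 9.37 and 9.07 FPKM in CON and to 7.87, 7.21 and 6.74 FPKM in RA, of which Has2 made up 93.9 ± 1.19% and 90.7 ± 1.62%.

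Neither hyaluronidase was a DEG. Hyal1 (ENSRNOG00000015858), which cuts hyaluronan into small fragments in lysosomes, was at 13.2, 14.6 and 13.3 FPKM in CON and at 10.2, 10.7 and 11.0 FPKM in RA. All RA samples were lower. The means were 13.7 ± 0.762 and 10.6 ± 0.415 FPKM, a log2 fold change of -0.38 (SE 0.0802, 95% interval -0.56 to -0.193, adjusted p = 0.0212), which passed the threshold on p and not that on the fold. Without CON 1 it was -0.41 (adjusted p = 0.00361), and in 4 of the 6 fits that leave out 1 sample the adjusted p missed the threshold, at 0.0778 to 0.102.

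Hyal2 (ENSRNOG00000031420), a hyaluronidase anchored at the cell surface that makes larger fragments, was at 19.3, 23.8 and 24.4 FPKM in CON and at 24.9, 25.0 and 27.1 FPKM in RA. The RA samples lay above the CON samples, RA 1 by little. The log2 fold change was 0.18 (SE 0.0997, 95% interval -0.0504 to 0.407, adjusted p = 0.322), and 0.076 without CON 1, the lowest sample. With Hyal3 included, Hyal1 made up 34.0, 31.1 and 29.8% of the summed hyaluronidase FPKM in CON and 24.2, 25.3 and 25.2% in RA, while the sum was 43.5 ± 4.14 in CON and 42.7 ± 0.892 in RA. Hyal1 and Hyal2 are adjacent in the RefSeq annotation, and Hyal3 and Naa80 overlap Hyal1, so that reads in the shared stretch are uncertain.

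The FPKM of Hyal1 and Hyal2 together, divided by that of the 3 synthases, was 2.78, 4.09 and 4.16 in CON and 4.46, 4.96 and 5.66 in RA. The RA samples were all higher, RA 1 by little over CON 3, and CON 1 stood below the other CON samples. This ratio compares transcripts and says nothing of enzyme activity.

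Cd44 (ENSRNOG00000006094), the main hyaluronan receptor, was at 33.4, 34.6 and 31.5 FPKM in CON 1, 2 and 3 and at 53.7, 49.8 and 50.4 FPKM in RA 1, 2 and 3. Both groups were narrow and lay well apart. The mean rose from 33.2 ± 1.58 to 51.3 ± 2.1 FPKM, a log2 fold change of 0.62 (SE 0.0597, 95% interval 0.48 to 0.754, adjusted p = 4.36e-04). The value was close to the threshold of 0.58, which its interval included. Without CON 1 it was 0.62, and over the fits that leave out 1 sample it ran from 0.59 to 0.64; Cd44 was a DEG in all 6 fits. Cd44 is also abundant on leukocytes. The 5 macrophage markers, of which 3 were tested and 0 called, summed to 13.2 to 14.6 FPKM in CON and 16.1 to 17.3 FPKM in RA, with no overlap. Most of that sum was Cd14, at 12.9 ± 0.834 and 15.3 ± 0.663 FPKM, Cd68 was at 1.05 ± 0.125 and 1.28 ± 0.0277 FPKM, Csf1r at 0.0864 ± 0.0569 and 0.171 ± 0.0594 FPKM, and Ptprc and Adgre1 were below 0.1 FPKM in all 6 samples. The part of this difference in the result for Cd44 was not tested. The splice forms of Cd44 were not separated.

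**Figure D3:**
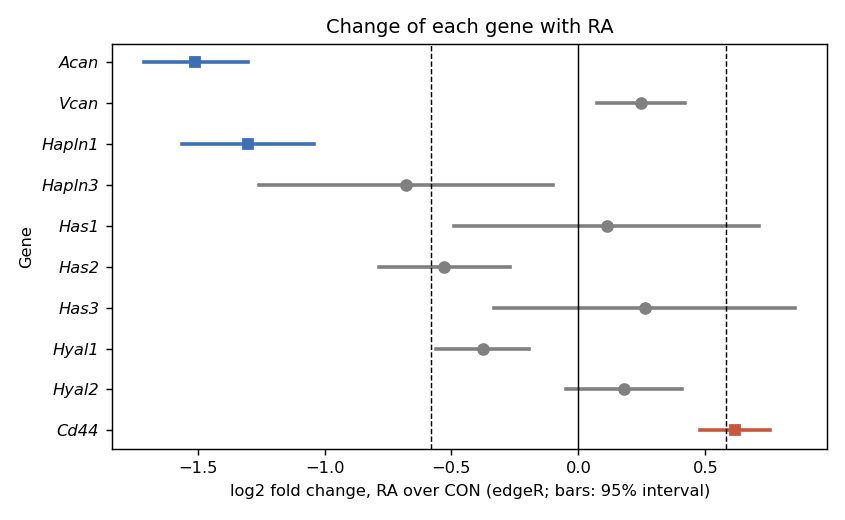
Log2 fold change of RA over CON for each of the 10 genes, with 95% intervals from edgeR. Squares are DEGs, circles are not, and dashed lines stand at -0.58 and 0.58. Acan at -1.51 and Hapln1 at -1.30 lie far below the lower line, Cd44 at 0.62 lies just above the upper line, and the interval of Has2 crosses the lower line.

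In the RefSeq annotation, the genes of proteoglycans and link proteins lie in adjacent pairs, Acan with Hapln3 and Vcan with Hapln1, with 0 annotated genes between them. Neither pair held 2 genes with the same call. Acan and Hapln3 were both lower in every RA sample, and Hapln3, at -0.68, was not a DEG. Hapln1 fell while Vcan was not a DEG, at 0.25. The difference between the genes of a pair was not tested.

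The genes whose profile over the 6 samples was most like that of the DEGs were sought among 6116 genes with a mean FPKM of at least 10, by the root mean square difference of centred log2 CPM. For Acan they were Col27a1, a fibrillar collagen of cartilage (difference 0.0727, log2 fold change -1.43), Mia (0.135) and Cnmd, which encodes chondromodulin (0.136). For Hapln1 they were Anxa8 (0.0914), Abi3bp (0.12) and PCOLCE2 (0.125). For Cd44 they were Gadd45a, a gene of the stress response (0.0293, log2 fold change 0.66), Slc4a7 (0.0301) and Clmp (0.0387). These are descriptions over 3 samples of each group, so any gene with a like difference between the groups comes close.

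Around the members, 53 other gene symbols of hyaluronan and aggrecan turnover were listed, of which 50 were found and 41 tested. Tmem2, which was not found, is an older symbol of Cemip2, which was. Of the 41, 3 rose and 4 fell as DEGs, where 2.67% and 2.29% of all genes tested did, and their median log2 fold change was -0.0378. By adjusted p alone, 8 were higher and 8 lower, where the shares of all genes tested were 5.31% and 4.5%. The 7 DEGs were DEGs without CON 1 as well. Of these genes, those named below that are neither DEGs nor the most abundant of their list were chosen after their values were seen.

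**Figure D4:**
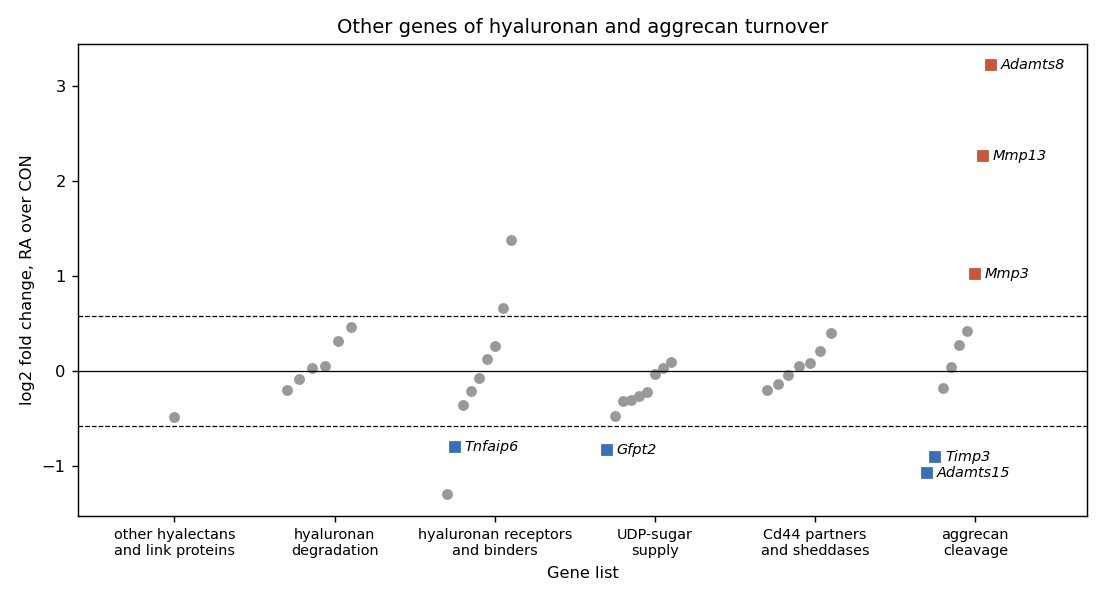
Log2 fold change of RA over CON for the 41 tested genes of 6 lists, 1 point per gene. Named squares are DEGs, grey circles are not, and dashed lines stand at -0.58 and 0.58. Of the 7 DEGs, 5 belong to the list of aggrecan cleavage, where Adamts8 at 3.21 and Mmp13 at 2.26 stand highest.

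Of these 7 DEGs, 5 were in the list of aggrecan cleavage, with 3 of 9 higher, 2 of 9 lower and a median log2 fold change of 0.28, beside 2.67% higher, 2.29% lower and a median of -0.00571 over all genes tested. The list as a whole was not tested. Mmp13, a collagenase that also cuts aggrecan, was at 64.3, 47.5 and 40.9 FPKM in CON and at 256, 223 and 261 FPKM in RA, and rose by a log2 fold change of 2.26 (SE 0.153, adjusted p = 8.77e-05). Mmp3, stromelysin, rose from 3.63 ± 0.55 to 7.42 ± 0.238 FPKM (1.02, SE 0.129, adjusted p = 0.0018). Adamts8 rose by 3.21 (SE 0.279, adjusted p = 2.53e-04) and stayed at a low level, 0.0548 to 0.0754 FPKM in CON and 0.579 to 0.698 FPKM in RA. Groups did not overlap for any of these 3 genes.

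Timp3, an inhibitor of the aggrecanases and the gene of the list with the highest mean over all 6 samples, was at 367, 332 and 321 FPKM in CON and at 176, 187 and 184 FPKM in RA, where Mmp13 was higher in each sample. Timp3 fell by a log2 fold change of -0.91 (SE 0.0645, adjusted p = 1.04e-04). Adamts15, an aggrecanase of low level, fell from 1.88 ± 0.468 to 0.901 ± 0.132 FPKM (-1.08, SE 0.206, adjusted p = 0.0131). It lost its call without CON 2, without RA 1 or without RA 3, with adjusted p up to 0.0684. The main aggrecanases of cartilage were not DEGs: Adamts4 was at 2.61 ± 0.26 and 2.70 ± 0.204 FPKM (0.03, 95% interval -0.221 to 0.288) and Adamts5 at 15.8 ± 1.49 and 14.1 ± 0.453 FPKM (-0.18, 95% interval -0.368 to 0.0116). Adamts1, at 29.7 ± 3.04 and 40.2 ± 0.265 FPKM (0.42, adjusted p = 0.0131), and Adamts9, at 5.38 ± 0.177 and 6.57 ± 0.287 FPKM (0.28, adjusted p = 0.0341), passed the adjusted p and not the fold-change threshold, with every RA sample above every CON sample.

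Among the 9 genes that supply the sugar nucleotides of hyaluronan, 0 were DEGs higher in RA and 1 was a DEG lower. Of all genes tested, 2.67% were DEGs higher and 2.29% DEGs lower. The median log2 fold change was -0.27, beside -0.00571 over all genes tested. Gfpt2, an isoform of the enzyme that opens the hexosamine pathway, was at 26.0, 25.5 and 24.5 FPKM in CON and at 13.5, 15.0 and 14.5 FPKM in RA. It fell by a log2 fold change of -0.84 (SE 0.0668, adjusted p = 1.78e-04). Ugp2, which makes UDP-glucose and was the most abundant, was at 90.8 ± 16.1 and 65.8 ± 5.77 FPKM (-0.48, adjusted p = 0.0418). Ugdh, which makes UDP-glucuronate, was at -0.31 (adjusted p = 0.0422) and Gfpt1, the other isoform, at -0.27 (adjusted p = 0.0301). Ugp2, Ugdh and Gfpt1 passed the adjusted p and not the fold-change threshold. By adjusted p alone, 0 of the 9 were higher and 4 lower, where the shares of all genes tested were 5.31% and 4.5%.

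Among the 9 tested genes of hyaluronan receptors and binding proteins, 0 were DEGs higher in RA, 1 was a DEG lower and the median was -0.0733. Of all genes tested, 2.67% were DEGs higher and 2.29% DEGs lower. By adjusted p alone, 0 of the 9 were higher and 2 lower, where the shares of all genes tested were 5.31% and 4.5%. Tnfaip6, which encodes TSG-6, a protein that moves heavy chains onto hyaluronan, was at 6.09, 6.27 and 6.43 FPKM in CON and at 3.88, 3.37 and 3.65 FPKM in RA. It fell by a log2 fold change of -0.80 (SE 0.118, adjusted p = 0.00397). Ptx3, which works with TSG-6 in hyaluronan matrices, was at 12.7 ± 0.291 and 10.0 ± 0.0501 FPKM (-0.36, adjusted p = 0.0141) and was not a DEG. Stab1 and Layn were higher in every RA sample and were not DEGs either. Their log2 fold changes were 0.66 (adjusted p = 0.144) and 0.26 (adjusted p = 0.165). Hmmr, the most abundant of the list, was at 32.6 ± 5.31 and 31.2 ± 3.67 FPKM (-0.07, adjusted p = 0.759). Itih2, which encodes a heavy chain, had only 8 to 49 counts per sample and was not a DEG (1.37, adjusted p = 0.0578). Without CON 1 it was at 1.73 (adjusted p = 0.00862). Itih3, the other heavy chain gene tested, had 6 to 31 counts per sample and was not a DEG either (-1.30, adjusted p = 0.0882), with every RA sample below every CON sample.

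The remaining lists held 0 DEGs. Among the 6 tested genes of hyaluronan degradation the median was 0.0387. Cemip, which encodes a protein of extracellular hyaluronan breakdown, was at 30.2, 30.7 and 32.7 FPKM in CON and at 42.0, 42.7 and 45.5 FPKM in RA (0.46, SE 0.0648, adjusted p = 0.00302), short of the fold-change threshold with no overlap between groups. Its relative Cemip2 was at 0.32 (adjusted p = 0.0297). Among the 7 genes of Cd44 partners and sheddases the median was 0.0462. Mmp14, a membrane protease and the most abundant of the list, was at 228 ± 8.58 and 265 ± 6.53 FPKM (0.20, adjusted p = 0.0602). Adam10, a Cd44 sheddase, was at 9.44 ± 0.462 and 12.5 ± 0.816 FPKM (0.39, adjusted p = 0.00973). Adam17, of the same list, was lower in every RA sample, at 26.5 ± 1.82 and 23.3 ± 0.121 FPKM (-0.20, adjusted p = 0.095). Of the other hyalectans and link proteins only Hapln4 passed the filter on low counts, at 1.87 ± 0.221 and 1.35 ± 0.0415 FPKM (-0.49, adjusted p = 0.0629). Without CON 1 it became a DEG at -0.58 (adjusted p = 0.01).

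**Figure D5:**
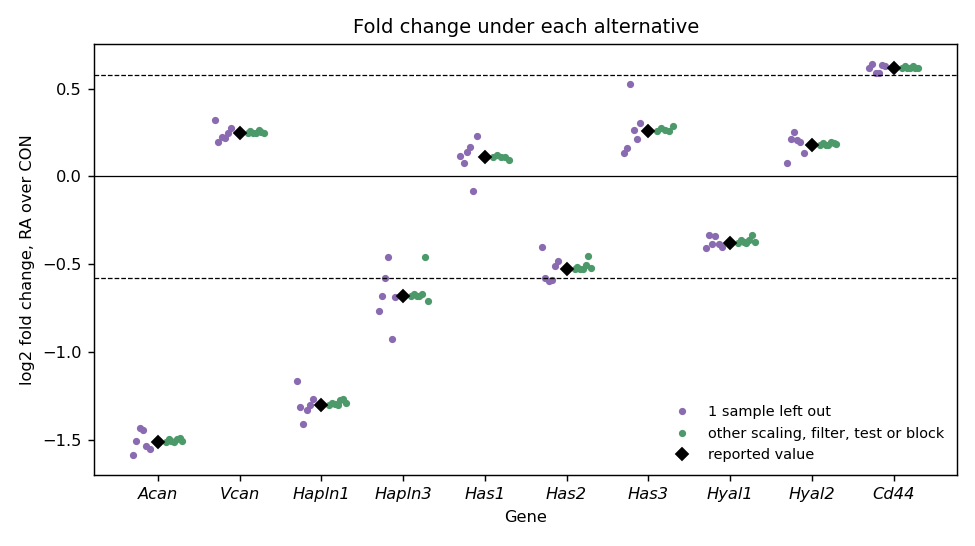
Log2 fold change of RA over CON for each of the 10 genes as reported (diamonds), with 1 sample left out at a time (left points) and under other scalings, filters, tests or the block (right points). Dashed lines stand at -0.58 and 0.58. Acan stays between -1.59 and -1.43 and Cd44 between 0.59 and 0.64, while Has1 runs from -0.083 to 0.23.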

How the data were processed

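For each of 6 samples the authors deposited whole-number counts of reads per gene for 18923 genes under Ensembl identifiers with symbols, and beside them FPKM values, scaled to gene length and to total counts. The submitters' processing notes name HISAT2, HTSeq 0.13.5 and the build Rnor_6.0. Whether counting used strand is not given in the sources used here, so reads of overlapping genes are uncertain.

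Counts were tested with edgeR 4.0.16 in R 4.3.3 (glmQLFit and glmQLFTest, TMM, filterByExpr with a minimum count of 10, no covariates, all 6 samples). Of 18923 genes, 13438 were tested and 667 were DEGs, 359 higher and 308 lower in RA. SE came from the F statistic, and the common biological coefficient of variation was 0.122. Ratios were tested by exact permutation over samples. A floor of 3 counts was 0.0789 to 0.102 CPM and covers counting error only. P-values measure the spread between these samples. The scripts were tested on simulated data.

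The members and lists were chosen with earlier results of these data known. Genes named were the members, the DEGs and the most abundant gene of each list, and the 3 genes most like each of Acan, Hapln1 and Cd44. A result that this rule would name is not reported here. Alternatives were other size factors, total count scaling, no filter, DESeq2 1.42.0, limma 3.58.1 on log2(FPKM + 0.1) and log2(FPKM + 1), other call rules, a replicate block and each sample left out. Promoters came from RefSeq on GRCr8, with no coordinates carried to Rnor_6.0.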

Additional observations from a re-analysis of the deposited data

How the results depend on the processing

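Acan, Hapln1 and Cd44 kept their direction and call under all 13 alternatives computed for each. The number of DEGs was 667, and it was 438 with limma on log2(FPKM + 1), 1319 by adjusted p alone and 1017 by unadjusted p with the fold-change threshold. By adjusted p alone, 4 members were lower in RA and 16 genes of the lists were called, against 2 and 7. With 1 sample left out, the number of DEGs ran from 480 to 755 and Has1 from -0.083 (without RA 2, a reversed sign) to 0.23, neither end of which passed the test. Has2 and Hyal1 passed the adjusted p in 2 of these 6 fits, without CON 1 and without CON 3, with adjusted p from 0.00224 to 0.107 and from 0.00361 to 0.102. Vcan passed it in 1 of 6, without CON 1, and also with DESeq2 (adjusted p = 0.042) and with the replicate block (adjusted p = 0.0322). With the replicate number as a block (replicate block), 684 genes were DEGs, with 1 member higher, 2 lower and 9 genes of the lists called. Those gained by the block were Stab1, at 0.70 (adjusted p = 0.0448), and Itih2, at 1.44 (adjusted p = 0.0438). Deviations of same-numbered samples correlated at 0.0928, -0.0123 and 0.0118, and those of samples with unlike numbers at -0.122 to 0.11. With 3 samples per group these values cannot decide whether the samples were paired. The main test took the samples as unpaired. The cause of these shifts was not tested. Summing identifiers could not be run, since each member has 1. Low counts limit Has1, Has3 and Hapln3.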
